A study of Mus musculus with 16 samples.

Results

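The 100 genes with the highest mean normalized count over 16 postnatal day 6 (P6) mouse cerebella were examined among genes present in the normal copy number in both models of Down syndrome. They were taken from the 12093 of 13807 deposited genes that do not lie on mouse chromosome 16, mouse chromosome 17, human chromosome 21, X or Y. The rule also set aside 3 named genes and the genes that separated trisomic from euploid animals in the same direction in both crosses. No gene was lost in this way among the 100, since the highest of those genes had rank 297, so in these data the members were simply the 100 highest means. The mean level is therefore what chose them, and it is given as a description.

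RNA-seq of poly(A) RNA was performed on whole cerebella of 4 Ts65Dn pups and 4 euploid littermates (C57BL/6J x C3H/HeJ), and of 4 TcMAC21 pups and 4 euploid littermates (C57BL/6J (B6) x DBA/2J (D2)). Ts65Dn mice carry a freely segregating extra chromosome with parts of mouse chromosomes 16 and 17. TcMAC21 mice carry a mouse artificial chromosome bearing nearly all of the human chromosome 21 long arm and a constitutively expressed GFP gene. Cross, strain background and litter cannot be told apart, the animals of a cross came as trisomic and euploid pairs from fewer litters than pairs, and the sex of the pups is not in the labels. From 6317856 to 25719969 reads per animal were counted on genes, with a median of 16135420.

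In newborn mice, Purkinje cells release Sonic hedgehog, which drives cell division in the outer layer of the cerebellum, and the neurons formed there migrate inward past Bergmann glia. Bulk RNA of the whole organ mixes all of these cells. In such a tissue, messages for tubulins, actins, translation factors and ribosomal proteins are known to be among those that take most of the reads. A gene with a very high count is measured with little counting error, and a change in it also moves the share of reads left for every other gene.

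The deposited table names each gene by a chromosome and a number from the assembler, and does not pair it with a symbol or position. None of the 100 members could therefore be given a name, a function or a sequence, and the label of the tissue could not be checked against marker genes. Members are called here by their chromosome and by their rank, counted from 1 for the highest mean. Gene lengths are not given either, so a rank orders reads and not molecules, and a long message ranks above a short one of the same abundance. In a bulk sample, fewer cells of a type and less RNA per cell cannot be told apart.

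The means of the members ran from 10141.4 to 450356 normalized counts, with a median of 14189. The median of all 13527 genes with a mean of at least 10 was 442.5. A mean above 50000 was reached by 5 members, a mean from 20000 to 50000 by 17, and a mean from 10000 to 20000 by 78. The last members inside the list had means of 10204 (rank 99, chromosome 4) and 10141.4 (rank 100, chromosome 9), and the first genes outside had 10137.1 (chromosome 2) and 10027.5 (chromosome 1). The border was thus narrower than the spread between animals: the gene at rank 100 ranged from 8719 to 14441 in single animals, and the first gene outside from 7434 to 12665.

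Members were found on 16 of the 17 chromosomes considered. Chromosome 11 held 13, chromosome 9 held 12 and chromosome 4 held 10. Chromosome 10 held 8, and the study places some orthologs of human chromosome 21 genes on it. In TcMAC21 pups such an ortholog would have a human copy beside the normal mouse copies. Whether any of the 8 is one could not be checked without names. Chromosome 8 held 0 of its 727 listed genes, and chromosome 18 held 6 of 339, or 1.77%, against 0.827% of all disomic genes. No mitochondrial gene was listed in the table.

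The 4 members after rank 1 had narrower ranges than it had. Rank 2 (chromosome 15) ran from 119757 to 199412 over the 16 animals, rank 3 (chromosome 11) from 55160 to 92324, rank 4 (chromosome 13) from 45819 to 79442 and rank 5 (chromosome 9) from 45928 to 67916. The mean of rank 1 was 3.07 times that of rank 2 and 44.4 times that of rank 100.

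**Figure D1:**
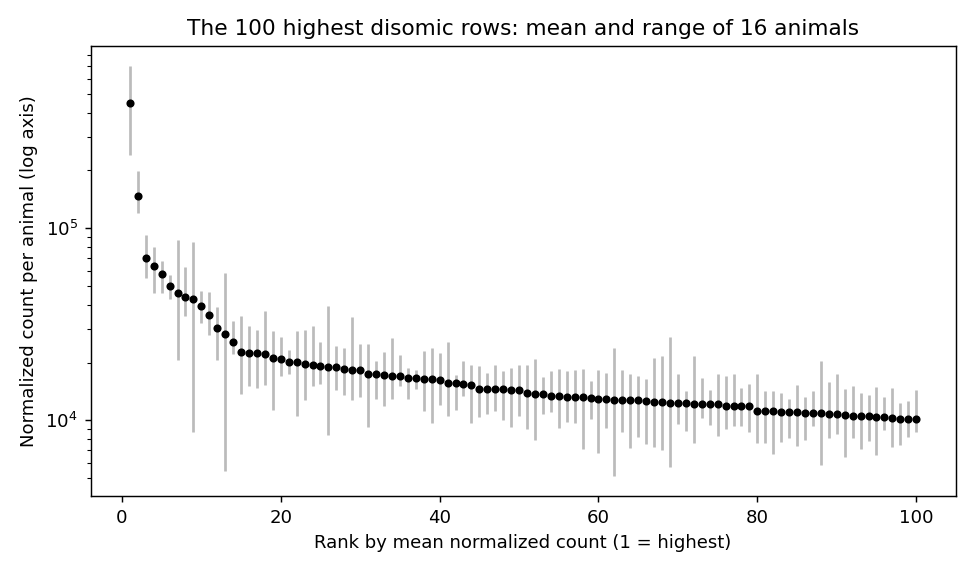
Mean normalized count of each of the 100 members against rank (points, log axis), with the range of the 16 animals (grey lines). The gene at rank 1 had a mean of 450356, the gene at rank 100 a mean of 10141.4, and the ranges at ranks 7, 9 and 13 were the widest among the first 20.

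The list was similar but not the same in every animal. When each animal's own 100 highest disomic genes were taken, between 73 and 94 of them were members (86.4 ± 5.26, mean ± SD, n = 16), and 41 members were among the 100 in all 16 animals. The animal with 73 was TcMAC21 replicate 4 (7704334 reads), and the one with 94 was Ts65Dn replicate 2 (18343089 reads). The shallowest library, Ts65Dn euploid replicate 3 with 6317856 reads, had 89. Choosing the members again without any 1 animal kept between 97 and 100 of them.

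The 100 members are 0.724% of the listed genes and took 16.23% ± 1.06 (SD, n = 16) of all normalized counts. Of the counts in members, 19.0% fell to the gene at rank 1, and the first 17 members held more than all the others together. By group, the share was 15.22% ± 0.561 in Ts65Dn pups, 16.32% ± 0.73 in their euploid littermates, 16.19% ± 0.578 in TcMAC21 pups and 17.19% ± 1.35 in theirs (SD, n = 4 each). The groups overlapped in both crosses: Ts65Dn pups ran from 14.69% to 15.83% and their littermates from 15.43% to 17.19%, and TcMAC21 pups from 15.43% to 16.82% and theirs from 15.87% to 19.02%. Between TcMAC21 animals of the same replicate number, taken as pairs, the share was lower in the trisomic pup in 4 of 4 pairs (15.43% and 15.87%, 16.16% and 16.60%, 16.34% and 17.29%, 16.82% and 19.02%).

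Most of the difference in share between groups was in a single gene. The gene at rank 1 (chr9.506830, chromosome 9) took 2.024% ± 0.276 of the counts in Ts65Dn pups, 3.339% ± 0.984 in Ts65Dn euploid littermates, 3.131% ± 0.577 in TcMAC21 pups and 3.816% ± 0.576 in TcMAC21 euploid littermates (SD, n = 4 each). The other 99 members together took 13.19% ± 0.365, 12.99% ± 0.325, 13.06% ± 0.325 and 13.38% ± 0.877 in the same order of groups. Among the 16 animals the share of rank 1 ran from 1.729% in Ts65Dn replicate 2 to 4.673% in Ts65Dn euploid replicate 1, and the share of the other 99 from 12.51% to 14.58%. In the TcMAC21 pairs the share of rank 1 was lower in the trisomic pup in 4 of 4, with 2.657% and 3.05%, 3.074% and 3.957%, 2.836% and 3.818%, and 3.958% and 4.439%.

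**Figure D2:**
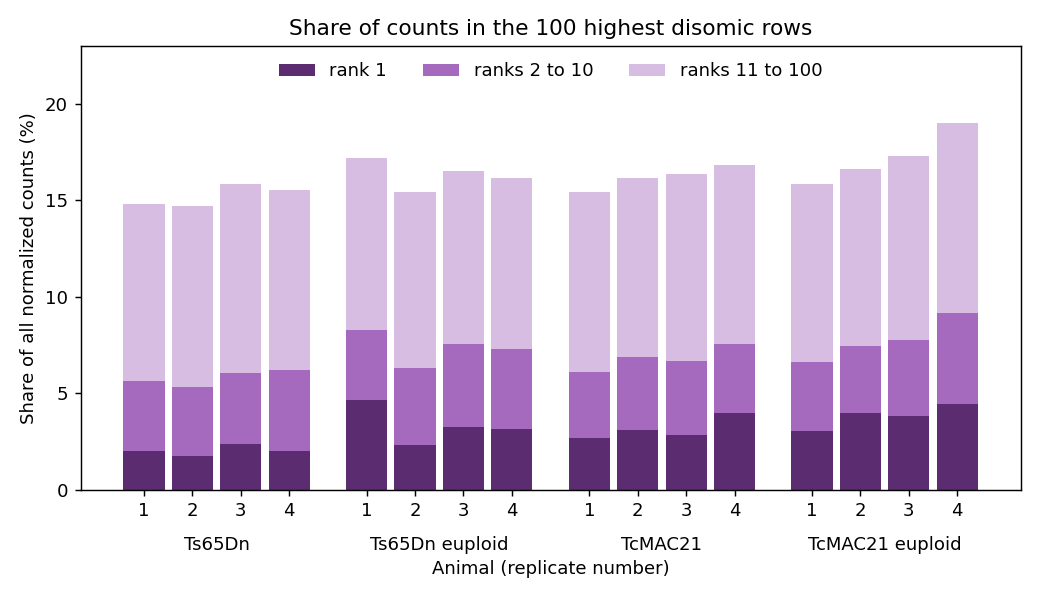
Share of all normalized counts taken by rank 1, ranks 2 to 10 and ranks 11 to 100 in each of the 16 animals, grouped by genotype and cross; bars start at 0. Totals ran from 14.69% to 19.02%, and the lowest segment, rank 1, from 1.729% to 4.673%.

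The spread between animals of one group was far above counting error. For each gene, the SD of log2(normalized count + 1) around the means of the 4 groups was pooled (12 degrees of freedom). The median SD of the members was 0.221, a factor of 1.17, with quartiles of 0.177 and 0.291. It was 0.233 over the next 100 disomic genes and 0.275 over all 13527 genes tested. The SD that read counting alone gives had a median of 0.013 and a maximum of 0.0153 over the members, so the observed SD was larger by a median factor of 18.3. No member had fewer than 2990 reads in any animal, for which the counting error is 1.83%. The spread between animals includes that of library preparation, which was not measured apart.

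The steadiest members stayed within a narrow range in all 16 animals. Rank 37 (chromosome 5) had an SD of 0.088 and counts of 16359, 15556, 17996 and 16506 in Ts65Dn, 16820, 15803, 16191 and 14506 in their littermates, 16861, 16805, 17970 and 15585 in TcMAC21, and 15899, 18084, 18201 and 16930 in theirs (replicates 1 to 4). The highest animal was 1.255 times the lowest. The genes at rank 74 (chromosome 4, SD 0.113) and rank 21 (chromosome 2, SD 0.12) followed, with the highest animal at 1.529 and 1.333 times the lowest.

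At the other end, 5 members had an SD above 0.5, a share of 5%, against 9.79% of all genes tested. Most variable was rank 13 (chr7.443764, chromosome 7, SD 0.979) with a 10.84-fold range. Its counts were 5425, 16193, 35155 and 34709 in Ts65Dn pups, 18409, 31205, 45688 and 50072 in their littermates, 9503, 15523, 14988 and 51498 in TcMAC21 pups and 16168, 18906, 30162 and 58793 in theirs. Each group of 4 held animals at least 2-fold apart, and all 4 groups overlapped.

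Next came rank 9 (chromosome 11), with an SD of 0.965. It had 8752, 31058, 84844 and 70039 in Ts65Dn pups, 22318, 52152, 66262 and 69059 in their littermates, 17147, 26855, 25839 and 53779 in TcMAC21 pups and 25268, 24885, 40367 and 67316 in theirs. Its deviations from the group means followed those of rank 13, with Pearson's r = 0.965 across 16 animals, a description only, since both values of an animal come from 1 library. Rank 7 (chromosome 18, SD 0.649) varied apart from both (r = 0.086 with rank 13 and 0.143 with rank 9). Its counts were 33296, 58025, 38558 and 87024 in Ts65Dn pups, 41153, 31636, 55174 and 20708 in their littermates, 50173, 63122, 46266 and 30033 in TcMAC21 pups and 58197, 28377, 21590 and 76371 in theirs.

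Some members deviated together and others in opposition. Of the 4950 pairs of members, 272 had an r above 0.8 between their deviations and 115 an r below -0.8, while the median r was 0.068. No count for pairs of other genes stands beside these, so they are not shown to be particular to the members. Beside rank 9, the members most like rank 13 were at rank 69 (chromosome 10, r = 0.845) and rank 80 (chromosome 7, r = 0.834). Those most like rank 1 were at rank 43 (chromosome 18, r = 0.849), rank 34 (chromosome 4, r = 0.796) and rank 76 (chromosome 11, r = 0.791).

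The spread was not shared evenly by the animals. TcMAC21 replicate 4 (7704334 reads) accounted for 16.7% of the summed squared deviations of the members, Ts65Dn euploid replicate 1 (9140152 reads) for 15.5%, TcMAC21 euploid replicate 4 (15335426 reads) for 12.8% and Ts65Dn replicate 1 (21002018 reads) for 11.3%. The shallowest library, Ts65Dn euploid replicate 3, accounted for 1.99%, and the part of depth in this spread was not tested. The lowest shares were 1.41% in Ts65Dn euploid replicate 2 and 1.58% in TcMAC21 euploid replicate 3. Ts65Dn replicate 3 had the highest count of all 16 animals for 25 members and TcMAC21 euploid replicate 4 for 22. The lowest count belonged to Ts65Dn euploid replicate 4 for 28 members and to Ts65Dn euploid replicate 1 for 18.

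In the TcMAC21 cross, pups with the same replicate number deviated together. Over the members the deviations of the numbered pairs correlated by 0.802, 0.607, 0.097 and 0.732, and by 0.02, 0.133, -0.145 and 0.112 in the Ts65Dn cross. These are descriptions across 100 genes, which are not independent replicates.

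**Figure D3:**
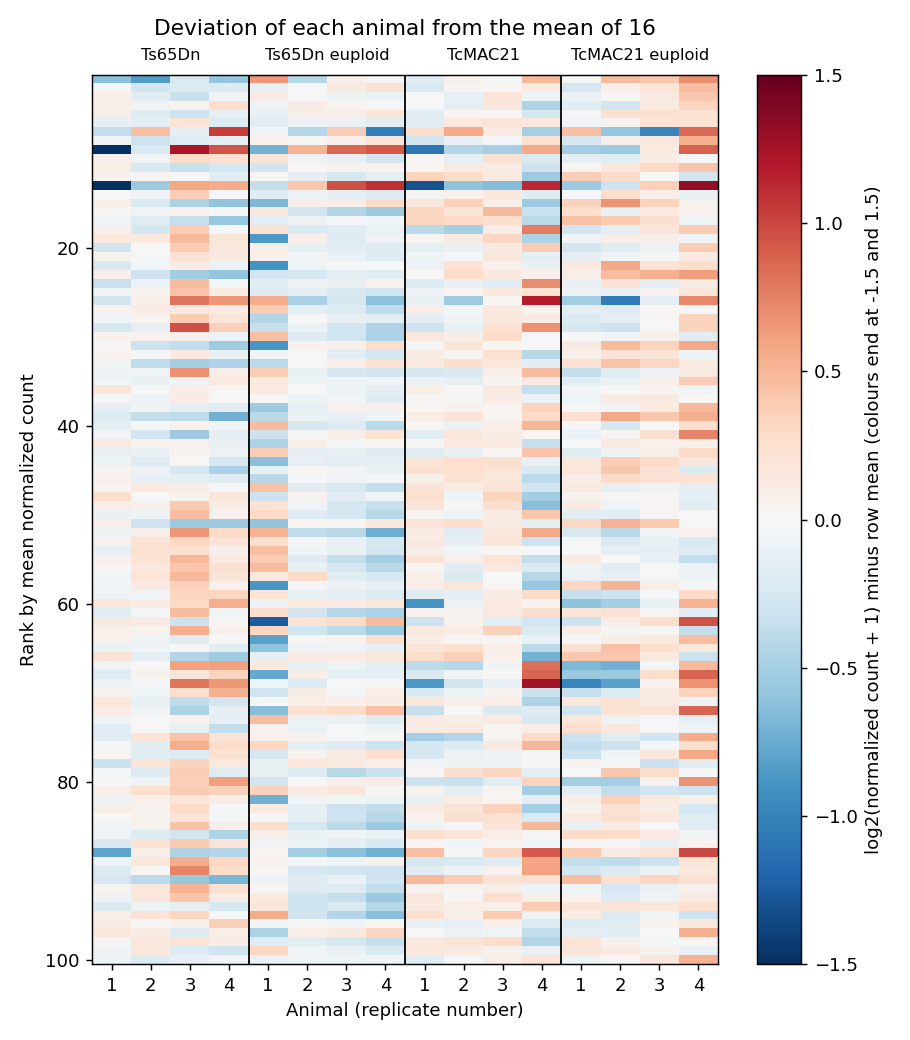
log2(normalized count + 1) of each member (rows, by rank) in each animal (columns, by group and replicate), minus the mean of the 16 animals; red is higher, blue lower, and colours saturate at both ends of the scale. Replicate 4 of TcMAC21 and of its euploid littermates share several red rows, and Ts65Dn euploid replicate 1 holds many of the dark blue cells of its group.

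Ts65Dn pups were compared with their euploid littermates to find whether the extra chromosome moved the most-read disomic genes. By limma with Benjamini-Hochberg adjustment over 13430 genes, 0 of the 100 members passed an adjusted p of 0.05, as did 0% of all genes tested. The lowest adjusted p of a member was 0.22 (ranks 92 and 98), and edgeR on the reads recovered from the table called 0 members as well. An unadjusted p under 0.05 was found for 11 members, 8 higher and 3 lower, which is 11%, against 17.1% of all genes. With 1 animal left out this count lay between 4 (without Ts65Dn replicate 3, against 9.28% of all genes) and 46 (without Ts65Dn euploid replicate 1, against 43.8%). It was 23 without Ts65Dn replicate 1 (24.3% of all genes) and 7 without Ts65Dn replicate 4 (9.5%). Leaving out Ts65Dn euploid replicate 3 or 4 gave 6 members each, against 9.13% and 9.27% of all genes. The log2 fold changes of the members had a median of 0.14 (0.01 over all genes), and 70 of the 100 were above 0 (51.6% of all genes). With quantile normalization, which gives the highest genes of every library the same values, the median was 0.03 and 56 were above 0.

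The gene at rank 1 had 279784, 239758, 366823 and 286422 counts in Ts65Dn pups and 675388, 320154, 454362 and 436106 in euploid littermates. It was lower in 3 Ts65Dn pups than in every littermate, and the fourth value, in replicate 3, lay above 1 littermate. The means were 293197 ± 53236 and 471503 ± 148349 (SD, n = 4), with a log2 fold change of -0.65 (standard error 0.231, 95% interval -1.16 to -0.14, adjusted p = 0.231 by limma). Without Ts65Dn euploid replicate 1, the highest value, the mean of the littermates was 403541 ± 72790 (SD, n = 3). With each animal left out in turn the log2 fold change lay between -0.82 and -0.46 and the adjusted p between 0.0841 and 0.542 by limma, and with quantile normalization it was 0.0, since this gene was the highest in each library compared.

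The largest difference downward was that of rank 13, whose counts are given above, with a log2 fold change of -0.90 (standard error 0.547, 95% interval -2.11 to 0.30, adjusted p = 0.386 by limma). With 1 animal left out it lay between -1.22 and -0.32, the latter without Ts65Dn replicate 1, where rank 1 had -0.63. Upward it was that of rank 29 (chr6.419095, chromosome 6), with 14839, 16159, 34548 and 22539 counts in Ts65Dn pups and 13876, 16401, 14489 and 12823 in littermates. Replicates 3 and 4 of Ts65Dn were above every littermate and the other pups were within their range. The log2 fold change was 0.54 (standard error 0.235, 95% interval 0.02 to 1.06, adjusted p = 0.282 by limma). Rank 7 followed with 0.53 (standard error 0.341, adjusted p = 0.412 by limma). Rank 29, with 1 animal left out, lay between 0.29 (without Ts65Dn replicate 3) and 0.70. In the same way rank 7 lay between 0.27 (without Ts65Dn replicate 4; 0.28 without Ts65Dn euploid replicate 4) and 0.75.

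Every Ts65Dn pup was above every littermate in 5 members and below in 1. These are 5% and 1%, against 4.53% and 4.23% of all 13430 genes. The 5 were at ranks 14, 19, 25, 92 and 98, on chromosomes 9, 1, 12, 11 and 9, and the 1 was at rank 8 on chromosome 15, all named after their values were seen. Rank 98 had 10258, 11307, 11637 and 10927 counts in Ts65Dn pups and 8836, 8968, 8407 and 7975 in littermates, so that the lowest pup stood above the highest littermate. Its log2 fold change was 0.37 (standard error 0.099, adjusted p = 0.22 by limma). Under the count test of DESeq2 on the recovered reads it was the 1 member that passed, with an adjusted p of 0.00782. That test called 2.36% of all genes and 1.96% of disomic genes. Over all alternatives, each animal left out included, its adjusted p lay between 0.00782 and 0.542. In TcMAC21 pups the same gene had 11151, 11540, 12267 and 7424 counts against 11642, 10588, 10016 and 10346 in littermates, which overlapped.

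A single library decided the count in this cross. Without Ts65Dn euploid replicate 1, 25 members passed by limma, 20 higher and 5 lower, while 27.8% of all genes did, 12.9% higher and 14.9% lower. The 2 groups then did not overlap in 30 members that were higher and 9 that were lower, against 18.9% and 20.1% of all genes. This library held 9140152 reads, and its part in the result beyond leaving it out was not tested.

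TcMAC21 pups, whose mouse chromosomes are all disomic, were compared with their littermates in the same way. None of the 100 members passed an adjusted p of 0.05 by limma, nor by edgeR or DESeq2 on the recovered reads, against 0.813%, 0.813% and 0.939% of all genes. These shares are mostly human genes, which only TcMAC21 pups carry: of the 110 genes called by limma, 108 lay on human chromosome 21. Over the 11855 disomic mouse genes tested, limma called 1, or 0.00844%, edgeR 1 and DESeq2 14, or 0.118%. The lowest adjusted p of a member was 0.653 by limma, and 3 members, all lower, had an unadjusted p under 0.05, or 3%, against 7.31% of all genes and 6.39% of disomic genes. The count fell to 0 when TcMAC21 replicate 1, TcMAC21 replicate 3 or euploid replicate 2 was left out, against 6.85%, 3.42% and 3.56% of all genes. It rose to 8 when euploid replicate 1 was left out (6.86% of all genes) and to 6 when TcMAC21 replicate 4 was (7.2%). Leaving out euploid replicate 3 or 4 gave 1 member each, against 5.47% and 11% of all genes. No member separated the 4 TcMAC21 pups from the 4 littermates, where 2.8% of all genes were higher and 2.23% lower in every pup (2.02% and 2.22% of disomic genes). The median log2 fold change of the members was -0.02 and 44 were above 0, against 0.0 and 50.5% over all genes. With quantile normalization this median was 0.0 with 51 above 0, and without TcMAC21 replicate 4 it was 0.01.

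The largest differences in TcMAC21 were those of variable members. Rank 13 had a log2 fold change of -0.56 (standard error 0.511, 95% interval -1.69 to 0.57, adjusted p = 0.774 by limma). With 1 animal left out it lay between -1.06 (without TcMAC21 replicate 4) and -0.19 (without TcMAC21 euploid replicate 4), and it was -0.25 without TcMAC21 replicate 1. Rank 13 was lower in the trisomic pup in 4 of 4 pairs of the same number, with an adjusted p of 0.0871 by limma when blocked. Rank 72 (chromosome 3) had 9334, 11747, 10214 and 10358 counts in TcMAC21 pups and 9618, 13617, 13737 and 21671 in littermates. Only TcMAC21 euploid replicate 1 lay within the range of the TcMAC21 pups, and the log2 fold change was -0.44 (standard error 0.21, 95% interval -0.90 to 0.03, adjusted p = 0.685 by limma). It lay between -0.62 and -0.23 with 1 animal left out, the latter without TcMAC21 euploid replicate 4. Within pairs it too was lower in 4 of 4 trisomic pups (blocked adjusted p = 0.153 by limma).

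Upward, rank 26 (chr7.426724, chromosome 7) had 16114, 12011, 17656 and 39341 counts in TcMAC21 pups and 12036, 8361, 15647 and 28629 in littermates. Replicate 4 was the highest in both groups, and each pup was above the littermate of the same number (blocked adjusted p = 0.0645 by limma). The log2 fold change was 0.39 (standard error 0.404, 95% interval -0.50 to 1.29, adjusted p = 0.793 by limma), and it lay between 0.05 (without TcMAC21 replicate 4) and 0.72 (without TcMAC21 euploid replicate 4) with 1 animal left out, being 0.13 without TcMAC21 euploid replicate 2. Rank 52 (chromosome 19) followed with 0.33 (standard error 0.169, adjusted p = 0.685 by limma), or 0.20 without TcMAC21 replicate 4. Its counts were 14330, 11836, 14794 and 19645 in TcMAC21 pups and 11208, 9874, 12892 and 13816 in littermates, higher in 4 of 4 pairs (blocked adjusted p = 0.0809 by limma). The members named in this comparison, upward and downward, were chosen for the size of their differences. Agreement in 4 of 4 pairs follows in part from that choice, and no share of all genes with such agreement stands beside it.

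When TcMAC21 pups were blocked with the littermate of the same number, the median standard error of the members fell from 0.15 to 0.088. The numbers were taken as pairs because the animals deviated together in these same data. A smaller error therefore follows in part from that choice, and the blocked p-values by limma can be too low. The members with an unadjusted p under 0.05 were then 21, of which 8 were higher, against 24% of all genes, and 0 passed the adjusted threshold (lowest adjusted p = 0.0645 by limma), against 1.78% of all genes and 0.86% of disomic genes.

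**Figure D4:**
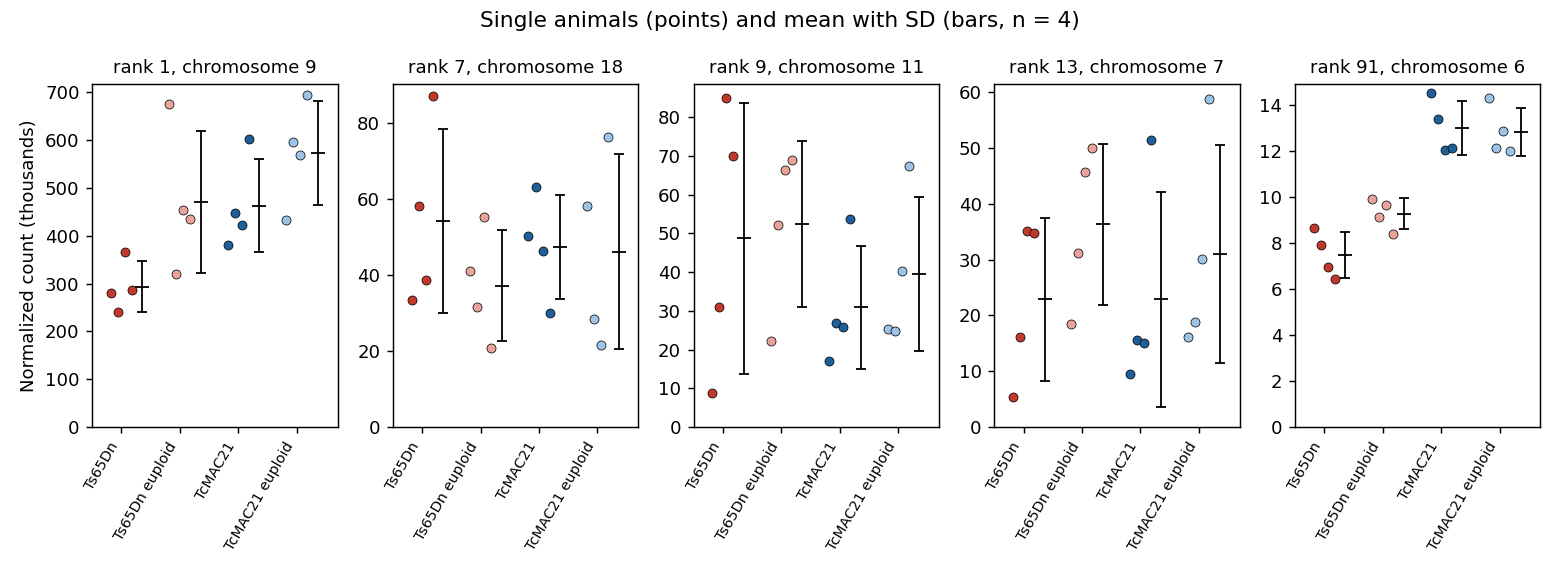
Normalized counts of 5 members in single animals (points) with the mean and SD of each group (bars, n = 4); each vertical axis starts at 0. Rank 1 is lowest in Ts65Dn pups, ranks 7, 9 and 13 spread widely within each group, and rank 91 is between 6424 and 9912 in the Ts65Dn cross and between 11985 and 14527 in the TcMAC21 cross.

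Intervals say how large a change these data leave possible. The 95% interval of the log2 fold change lay wholly within a 1.5-fold change in either direction for 60 members in Ts65Dn (44.5% of all genes) and for 74 in TcMAC21 (48.9% of all genes). It did so in both models for 54 members. A 2-fold change in either direction bounded the interval of 93 members in Ts65Dn and 95 in TcMAC21. From its centre, an interval reached 0.33 on the log2 scale at the median in each model. The estimate itself was beyond 1.5-fold for 2 members in Ts65Dn, ranks 1 and 13, and for 0 in TcMAC21. No share over all genes stands beside the counts for both models, for the 2-fold bound and for the estimates. Those counts are therefore not shown to be particular to the members.

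**Figure D5:**
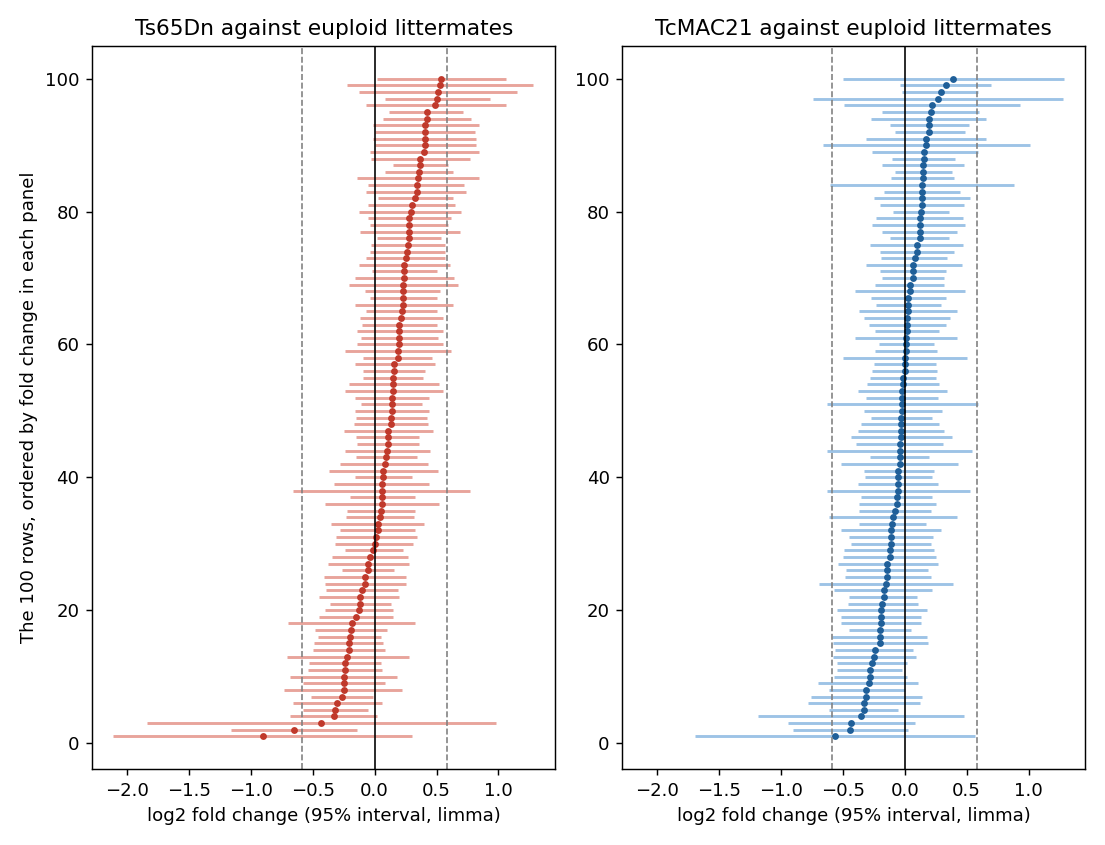
log2 fold change (points) and 95% interval by limma (lines) of each member in Ts65Dn (left) and TcMAC21 (right) against euploid littermates, ordered within each panel; dashed lines mark a 1.5-fold change. Estimates ran from -0.90 to 0.54 in Ts65Dn and from -0.56 to 0.39 in TcMAC21.

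The 2 models used separate littermates. Of the members, 39 had log2 fold changes above 0 in both, 25 below 0 in both, 31 above 0 in Ts65Dn and below 0 in TcMAC21, and 5 the reverse. Across the 100 members the log2 fold changes correlated with Pearson's r = 0.70, and 0.663 without rank 13, a description across genes that share libraries and scaling. Neither this correlation nor the counts of shared direction were taken over all genes. Such agreement is therefore not shown to be particular to the members. The study itself describes a positive correlation of expression levels between the models. When the difference between the models was tested as the interaction of genotype and cross over all 16 animals, 0 members passed (lowest adjusted p = 1.0 by limma) against 0.806% of all genes, where 104 of the 109 genes called were human and 1 was a disomic mouse gene. An unadjusted p under 0.05 by limma was found for 2 members, against 3.5% of all genes. With 1 animal left out this count lay between 1 (without TcMAC21 euploid replicate 2, against 3.69% of all genes) and 7 (without Ts65Dn euploid replicate 1, 6.46%). By edgeR and DESeq2 0 members passed, against 0.251% and 0.828% of all genes.

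The euploid littermates of the 2 crosses were compared as a contrast that the rule did not name. The mean that chose the members took in both crosses, so a gene high in only 1 cross could enter through that cross. Counts of members that differ between the crosses are therefore a description and are not independent of the choice. By limma 0 of the 100 members passed an adjusted p of 0.05, against 0.134% of 13400 genes, and the lowest adjusted p of a member was 0.101. By edgeR 0 members passed (0.119% of all genes), and by DESeq2 6 did (3.45%). With all 16 animals in one limma fit 2 members passed (1.03% of all genes), and without Ts65Dn euploid replicate 1 there were 5 (1.95%). The unadjusted p was under 0.05 for 17 members, against 14.3% of all genes, and for 11 to 29 with 1 animal left out. The 11 were without TcMAC21 euploid replicate 2 (9.18% of all genes), the 29 without Ts65Dn euploid replicate 1 (20.1%), and 28 were found without TcMAC21 euploid replicate 4 (21.9%). Members were mostly lower in Ts65Dn littermates, with 20 above 0 (47.8% of all genes) and a median log2 difference of -0.11 (-0.01 over all genes), but with quantile normalization the median was 0.03 and 55 were above 0. The median was -0.18 without Ts65Dn euploid replicate 1, and 33 members were above 0 without Ts65Dn euploid replicate 4 or without TcMAC21 euploid replicate 4. All 4 Ts65Dn littermates were below all 4 TcMAC21 littermates in 14 members, or 14%, against 4.67% of all genes, and above them in 1 (rank 81), against 5.17%. Without Ts65Dn euploid replicate 1 these were 24 members, against 9.8% of all genes, and 2, against 10.2%.

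Rank 88 (chromosome 18) had 10459, 7105, 6608 and 6200 counts in Ts65Dn littermates and 13419, 11116, 11772 and 20271 in TcMAC21 littermates, which did not overlap. Its mean was 7593 in the Ts65Dn littermates and 7934 in the Ts65Dn pups, below the 10141.4 at rank 100. Its place in the list thus rested on the TcMAC21 cross. The log2 difference was -0.89 (standard error 0.215, adjusted p = 0.123 by limma, 0.0112 by DESeq2). Rank 23 (chromosome 11) had 15781, 16017, 17300 and 16764 counts against 20423, 26304, 27604 and 29445, a log2 difference of -0.64 (standard error 0.132, adjusted p = 0.101 by limma, 0.00073 by DESeq2). In both genes the Ts65Dn littermates were lower in 4 of 4 animals. Without Ts65Dn euploid replicate 1 both passed by limma, with an adjusted p of 0.0297 at rank 88 and 0.044 at rank 23. With other animals left out the adjusted p by limma rose to as much as 0.349 at rank 88 and 0.322 at rank 23. Over the alternatives that kept every animal the adjusted p lay between 0.0112 and 0.14 at rank 88 and between 0.00073 and 0.107 at rank 23.

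The opposite difference was seen at rank 81 (chromosome 15), with 13928, 11908, 12330 and 11107 counts in Ts65Dn littermates and 9792, 8466, 9084 and 8774 in TcMAC21 littermates. The log2 difference was 0.45 (standard error 0.114, adjusted p = 0.136 by limma, 0.0112 by DESeq2, 0.0112 to 0.145 over the alternatives that kept every animal). With 1 animal left out the adjusted p at rank 81 lay between 0.0684 and 0.409 by limma. At rank 9 the animals overlapped, and the difference was 0.41 (limma adjusted p = 0.672, standard error 0.391). With 1 animal left out it lay between 0.23 (without TcMAC21 euploid replicate 2) and 0.78 (without Ts65Dn euploid replicate 1).

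The trisomic pups of the same crosses gave a second look at this contrast, with the extra chromosome differing as well. Of the 14 members lower in the Ts65Dn littermates, 2 were also lower in every Ts65Dn pup than in every TcMAC21 pup, a share of 14.3%, against 29.5% over all genes. These were rank 39 (chromosome 1) and rank 91 (chromosome 6), named after their values were seen, and they did not overlap between all 8 animals of the Ts65Dn cross and all 8 of the TcMAC21 cross. Rank 39 ran from 9685 to 15321 in the Ts65Dn cross and from 16419 to 23691 in the TcMAC21 cross. Rank 91 ran from 6424 to 9912 and from 11985 to 14527. Such a separation of all 8 animals from all 8 in this direction was found in 2% of members and 0.798% of all genes. In the Ts65Dn cross rank 91 stayed below the 10141.4 of the last member in every animal. Its place in the list thus rested on the TcMAC21 cross, so its separation is not independent of the choice. Rank 81, higher in the Ts65Dn littermates, was also above all TcMAC21 pups in each Ts65Dn pup.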

How the data were processed

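Per the labels and the study's methods, poly(A) libraries were made with a kit that does not mark strand, and paired 50 bp reads were aligned by STAR 2.4.2a to mm39 plus human chromosome 21. The authors built 1 set of gene models with PsiCLASS and deposited a signal for each gene in each library, namely reads scaled by DESeq2 size factors, to 2 decimals. How genes were selected for the table and how reads shared by near-identical genes were counted is not given in the sources used here, so members with such copies or with an overlapping gene on the other strand are uncertain. Every value was a whole multiple of 1 read (100% of values, within 0.05 read beyond rounding), and this gave back the reads.

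Groups came from the sample labels. Among 24 pairs of libraries of the same group 0 were identical, and the lowest chi-square per degree of freedom was 5.59. Genes averaging 10 or more normalized counts were fitted with limma 3.58.1 (lmFit, eBayes with trend) on log2(normalized count + 1), the scale of every fold change, with Benjamini-Hochberg adjustment over all of them. All 100 members passed this filter, as their choice by a high mean ensures. Reads recovered from the table were also given to the quasi-likelihood test of edgeR 4.0.16 and to DESeq2 1.42.0 (R 4.3.3), and the fits were tested on simulated data. Pseudocount, filter, scaling, replicate block, a fit of all 16 animals and each animal left out were the alternatives.

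Same-numbered TcMAC21 pups and littermates deviated together over 13423 mouse genes (r = 0.494, 0.497, 0.194 and 0.5), so there the numbers were taken to pair the animals. The methods speak of littermate pairs without giving their numbers.

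Members and comparisons were chosen with earlier results of these data known. Genes named by rule are the 5 highest means, the 2 largest differences in each direction in each comparison, the 3 most and 3 least variable members, and the border of the list. Plots were drawn with matplotlib 3.10.9.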

Additional observations from a re-analysis of the deposited data

Results flagged for a closer look

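In 156 groups of 4 animals, made of the members named in the text and of the summed shares, the highest or lowest animal was compared with the other 3. A gap to the nearest animal above Dixon's 95% critical value for 4 samples, as a part of the whole range, was found in 7 groups, where chance gives about 1 in 20 groups. At rank 13 (chromosome 7), TcMAC21 replicate 4 had a normalized count of 51498 and the other 3 TcMAC21 pups had 9503 to 15523, a gap of 0.857 of the range. At rank 5 (chromosome 9), TcMAC21 euploid replicate 1 had 56790 and the other 3 had 66746 to 67916, a gap of 0.895 of the range. Ts65Dn replicate 3 stood above the other 3 Ts65Dn pups at rank 14 (chromosome 9), with 32876 and a gap of 0.905, and at rank 19 (chromosome 1), with 29038 and a gap of 0.923. At rank 43 (chromosome 18), Ts65Dn euploid replicate 1 had 19730, with a gap of 0.883. The share of counts in ranks 2 to 10 was 4.215% in Ts65Dn replicate 4 and at most 3.66% in the other 3 pups, a gap of 0.907. The share in ranks 11 to 100 was 9.645% in TcMAC21 replicate 3 and at most 9.31% in the other 3 pups, a gap of 0.945. What lies behind these gaps was not tested.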

How the results depend on the processing

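In Ts65Dn, the members passing went from 0 to 1 with DESeq2 on the recovered reads and lay between 0 and 25 with 1 animal left out, the 25 without Ts65Dn euploid replicate 1. Between the euploid littermates they went from 0 to 6 with DESeq2 on the recovered reads, to 2 with all 16 animals in one fit, and lay between 0 and 5 with 1 animal left out, the 5 again without Ts65Dn euploid replicate 1. In TcMAC21 and for the interaction the count was 0 in every alternative run. With quantile normalization, which fixes the value of the gene that is highest in every library, the log2 fold change of rank 1 in Ts65Dn was 0.0, the median of the members was 0.0 in TcMAC21 and 0.03 between the euploid littermates, each on the other side of the value reported or at 0. With 1 animal left out the TcMAC21 median lay between -0.07 and 0.01, the latter without TcMAC21 replicate 4.

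The share of counts was 18.04% of the counts of disomic genes alone, and the median SD of the members lay between 0.188 and 0.231 with 1 animal left out, lowest without Ts65Dn euploid replicate 1 and 0.197 without TcMAC21 replicate 4. The numbers of members with an interval within 1.5-fold stayed within 1.5 times of those reported. With the replicate block the members passing stayed at 0 in Ts65Dn and TcMAC21, and those with an interval within 1.5-fold were 50 and 93. In Ts65Dn same-numbered animals correlated by -0.46, -0.133, -0.361 and -0.225 over 13423 mouse genes, and 0 of 4 correlated best with their own number, so the numbers there were not taken as pairs. No block was fitted between littermates of different crosses. Counting error was at most 1.83% for any member in any animal, and other effects of depth were not tested.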
